A study of Mus musculus with 9 samples.

Results

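Brain gene expression after stress was compared with that under a standard environment in APP/PS1 mice, a line whose human transgenes cause amyloid plaques in the brain. The comparison uses 6 of the 9 libraries of the series, chosen by the group named in their labels and titles. They are 3 libraries of APP/PS1 mice exposed to stress and 3 of APP/PS1 mice kept in a standard environment (control). The other 3 libraries, of APP/PS1 mice kept in an enriched environment, entered the fit to help estimate the spread between animals. All 9 animals carry the APP/PS1 genotype, so no animal without amyloid transgenes is in the comparison. The kind and duration of stress, the age and sex of the mice and the promoters that drive the transgenes are not given in the sources used here. Because the treatment field names standard rearing for every animal, groups rest on the group field and the titles, which match. Each title carries its own animal code, beginning with C for the 3 stress animals and control replicate 1 and with D for control replicates 2 and 3. The design text describes perfused animals and RNA from the brain stem together with the front of the brain, so each library mixes regions.

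Stress hormones act in the brain mainly through the glucocorticoid receptor, a transcription factor that most cell types hold and that induces genes such as Fkbp5 and Tsc22d3. Vessel cells, immune cells at the brain's borders and the choroid plexus, which makes cerebrospinal fluid, all meet circulating hormones and cytokines. Amyloid plaques draw microglia, and T cells enter the brain in small numbers in such mice. The series title relates stress to disease progression and CD8+ T cells, so the comparison asks which transcripts of the brain differ under stress.

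Libraries held 15916865 to 17213008 estimated counts in the 6 animals, and the filter on low counts left 14694 genes. Levels are given as CPM (reads scaled to library size), which compare samples but not genes of different length. The label of brain tissue held, with 5 neuronal markers summing to 4538, 5003 and 4984 CPM in stress and to 3636, 4136 and 4731 CPM in control. Markers of liver and muscle summed to between 4.15 and 7.39 CPM in stress and between 5.45 and 9.005 CPM in control. These markers do not check which brain regions were taken. A list of 13 cerebellar genes summed to 3290, 4979 and 6458 CPM in stress. In control it summed to 4567, 5616 and 5969 CPM. The regional makeup of the dissected tissue differed between animals within each group. Relative to the control mean, 17 brain stem genes averaged 0.67, -0.14 and -2.49 on the log2 scale in stress replicates 1 to 3 and 0.92, 1.01 and -1.94 in control replicates 1 to 3. The first component of 10 such region lists was at -1.50, -0.37 and 1.43 in stress and at 0.82, 3.33 and 1.22 in control. It was used as a covariate in an alternative fit. It held 39.2% of the variance and did not follow the brain stem genes. The second component (33.8%) did, at 2.06, 0.45 and -2.49 in stress and at 1.21, 2.54 and -2.13 in control. The brain stem median was -0.79, became -1.14 with the first component and -0.25 with both. The first component alone therefore left the brain stem difference in place.

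No gene passed the adjusted threshold. Of 14694 genes, 0 (0.0%) had an adjusted p under 0.05 by the quasi-likelihood test of edgeR (Benjamini-Hochberg over all genes), and the smallest adjusted p was 0.187, for Samd9l. Under an unadjusted p of 0.05 were 1172 genes (7.98%), 617 higher in stress (4.2%) and 555 lower (3.78%). DESeq2 called 7 genes, 4 higher and 3 lower, and limma-voom called 0. In 762 genes (5.19%) every stress value lay above every control value, and in 684 (4.65%) every stress value lay below. The median log2 fold change of all genes was 0.02, and 149 genes were over 2-fold higher and 92 over 2-fold lower. On simulated counts with these library sizes, 77.8% of 108 genes with a log2 change of 1 and 97.8% of 92 with a change of 2 were called. So were 12 unchanged genes. That run checks the fit. Whether changes of that size would be called in these libraries, which also differ in regional makeup, was not tested. The number of genes under an unadjusted p of 0.05 moved with the libraries used. Without stress replicates 1, 2 or 3 in turn, 2.89%, 1.5% or 10.5% of all genes were higher and 1.97%, 1.12% or 10.4% lower. Without control replicates 1, 2 or 3, it was 2.01%, 2.43% or 13.3% higher and 1.14%, 2.29% or 10.8% lower. Counts of list members in these fits stand against these shares. In the main fit they stand against 4.2% higher and 3.78% lower, and counts without overlap against 5.19% and 4.65%. The values below therefore describe these 6 animals, and a difference is called larger than the spread only where the groups do not overlap. With 3 against 3, groups without overlap have an exact two-sided permutation p of 0.1. Many genes would thus separate with no group effect, and no overlap in a single gene is weak evidence.

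Samd9l had the smallest p of all genes. It is an interferon-stimulated gene whose protein restrains viruses and cell growth (gene 209086, chromosome 6, 3372257 to 3399571 on GRCm38.p6). The gene was at 6.01, 7.32 and 5.62 CPM in stress, at 6.95, 5.89 and 6.21 CPM in the enriched animals and at 1.99, 2.54 and 1.997 CPM in control. All stress animals lay above all controls, with a log2 fold change of 1.54 (SE 0.19), and the enriched animals, which share these controls, lay in the range of the stress animals. Its adjusted p was 1.39e-05 in DESeq2 and ranged from 0.114 to 0.972 in edgeR fits that each left out 1 stress or control library. The promoter, from RefSeq on GRCm38.p6, is shown because Samd9l leads the comparison (chr6:3399522-3399821, minus strand), with letters of an interferon response motif in capitals.
Samd9l: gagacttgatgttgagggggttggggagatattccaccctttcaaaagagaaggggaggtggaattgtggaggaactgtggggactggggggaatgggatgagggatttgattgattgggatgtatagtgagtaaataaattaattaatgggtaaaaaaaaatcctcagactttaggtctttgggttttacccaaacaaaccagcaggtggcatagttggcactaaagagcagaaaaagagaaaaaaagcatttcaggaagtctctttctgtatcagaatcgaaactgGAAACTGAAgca
The letters GAAANNGAA, searched on both strands, were chosen after this sequence was read and occur in 8.56% of 32851 promoter windows of the same length.

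**Figure D1:**
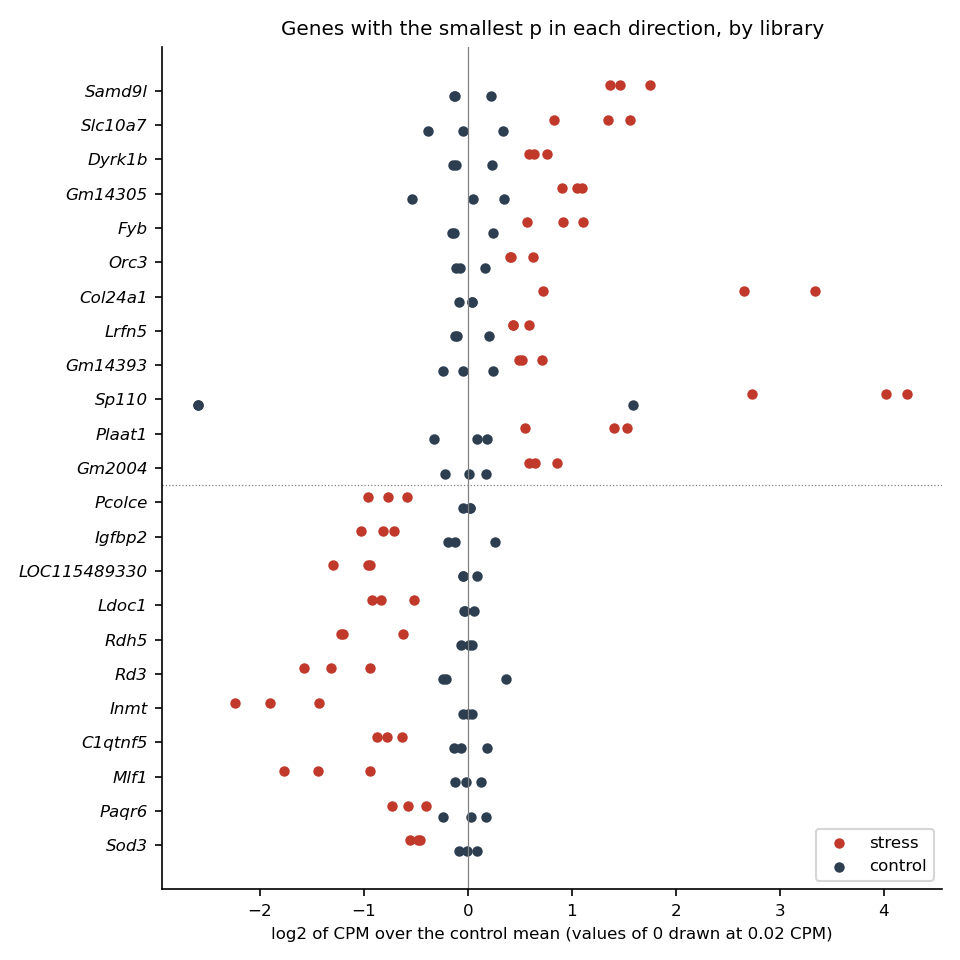
The log2 ratio of each library's CPM to the control mean, for 12 genes higher and 11 lower in stress with the smallest p in their direction, with stress points in red above control points in dark blue. All 23 genes have groups that do not overlap, and Col24a1 and Sp110 spread most widely among the stress animals.

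The other genes that stood highest by p were of mixed function. Slc10a7, a transporter-like membrane protein involved in calcium handling and glycosylation (gene 76775, chromosome 8), was at 6.19, 7.20 and 4.34 CPM in stress and at 1.87, 2.35 and 3.09 CPM in control, a log2 fold change of 1.28 (SE 0.25). Dyrk1b, a protein kinase (gene 13549, chromosome 7), was at 33.6, 30.7 and 29.6 CPM in stress and at 17.9, 23.2 and 18.2 CPM in control, a log2 fold change of 0.66 (SE 0.14). For Dyrk1b the difference lay largely in 1 of its 4 transcript rows. That row held 247, 200 and 131 estimated reads in stress and 0, 91.3 and 0 in control. Another row of Dyrk1b held 118, 123.1 and 115 reads in stress and 112, 127 and 148 in control, with no such gap. A gene's value can therefore move with how reads were shared between its transcripts.

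Col24a1, a fibrillar collagen (gene 71355, chromosome 3, 145292472 to 145552013), was at 4.43, 7.14 and 1.16 CPM in stress and at 0.72, 0.72 and 0.67 CPM in control. The groups do not overlap, but stress replicate 3 lay far nearer to the controls than the other stress animals did. The log2 fold change of Col24a1 was 2.58 (SE 0.58) with an adjusted p of 0.0245 in DESeq2 and 0.546 in edgeR. The RefSeq promoter is shown because it holds the cyclic AMP response letters TGACGTCA, in capitals, which read the same on both strands and occur in 1.79% of promoter windows (chr3:145292222-145292521, plus strand, GRCm38.p6).
Col24a1: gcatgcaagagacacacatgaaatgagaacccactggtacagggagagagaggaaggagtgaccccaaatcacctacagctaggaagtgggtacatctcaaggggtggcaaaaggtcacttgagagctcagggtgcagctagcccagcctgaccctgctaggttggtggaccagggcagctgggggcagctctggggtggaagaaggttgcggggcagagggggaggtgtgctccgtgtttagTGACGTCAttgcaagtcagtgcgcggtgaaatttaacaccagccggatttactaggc
The promoter of Mlf1, a gene that was lower in stress (log2 fold change -1.33), holds the same letters. No factor's binding was measured, so each match describes its window alone.

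Fyb, an adaptor protein of T cells and myeloid cells, was at 8.26, 7.20 and 5.68 CPM in stress and at 4.52, 3.50 and 3.45 CPM in control, a log2 fold change of 0.88 (SE 0.19). Orc3, a subunit of the origin recognition complex that also occurs in neurons, was at 58.3, 67.6 and 58.6 CPM in stress and at 40.5, 41.8 and 49.4 CPM in control. Lrfn5, a synaptic adhesion molecule, was at 50.4, 45.2 and 45.2 CPM in stress and at 31.1, 30.7 and 38.5 CPM in control. Neither Orc3 nor Lrfn5 overlaps between groups, and both had a log2 fold change of 0.49 (SE 0.11). Plaat1, a phospholipid-modifying enzyme, was at 12.3, 6.22 and 11.2 CPM in stress and at 4.52, 4.83 and 3.39 CPM in control. Sp110, an interferon-induced nuclear body protein, was at 2.25, 0.80 and 1.95 CPM in stress and at 0, 0.36 and 0 CPM in control. With 0 reads in 2 control libraries, its fitted fold change depends on the prior count and is not given.

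On the lower side the smallest p belonged to a secreted protein of the collagen pathway. Pcolce, which enhances the maturation of collagen (gene 18542, chromosome 5, 137605105 to 137611522), was at 13.8, 17.9 and 15.8 CPM in stress and at 27.3, 27.4 and 26.0 CPM in control. Igfbp2, a binding protein of insulin-like growth factors (gene 16008, chromosome 1, 72824480 to 72852474), was at 54.3, 68.1 and 62.9 CPM in stress and at 133, 97.4 and 102 CPM in control. Their log2 fold changes were -0.76 (SE 0.15) and -0.84 (SE 0.17), and DESeq2 gave both an adjusted p of 0.0237. In Igfbp2 the highest value was that of control replicate 1. Both genes are in a list of 27 fibroblast and meninges genes, of which 13 lay above and 14 below 0, 2 were higher and 3 lower under an unadjusted p of 0.05, and the median was -0.02. LOC115489330, for which the annotation gives no function, was at 12.6, 12.7 and 9.95 CPM in stress and at 23.6, 23.5 and 26.0 CPM in control. Sod3, the extracellular superoxide dismutase, was at 23.9, 25.5 and 25.3 CPM in stress and at 37.3, 35.0 and 33.1 CPM in control. Here too the enriched means lay nearer to stress than to control. They were 13.8 CPM for Pcolce, 66.5 for Igfbp2, 15.0 for LOC115489330 and 25.6 for Sod3.

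Enzymes and a secreted protein followed. Rdh5, an enzyme that oxidises 11-cis-retinol in the eye, was at 6.50, 6.58 and 9.83 CPM in stress and at 15.6, 15.3 and 14.5 CPM in control, a log2 fold change of -0.98 (SE 0.22). Inmt, an N-methyltransferase, was at 0.49, 0.62 and 0.86 CPM in stress and at 2.23, 2.35 and 2.30 CPM in control. C1qtnf5, a secreted protein of the C1q family, was at 18.7, 22.1 and 20.0 CPM in stress and at 38.8, 32.6 and 31.2 CPM in control. Of the 50-base words in transcripts of C1qtnf5, 84.5% also occur in transcripts of other genes, and 27.1% of those of Rdh5, so their counts are less certain. Ldoc1, Rd3, Mlf1 and Paqr6 were also among them, with log2 fold changes between -1.33 and -0.56. Enriched means were nearer to stress for Rdh5 (6.50 CPM), Inmt (1.12), C1qtnf5 (17.6), Ldoc1 (8.75) and Paqr6 (37.2). They were about midway for Rd3 (1.91 CPM) and Mlf1 (1.07). Choroid plexus markers moved with these genes, as 5 of them summed to 360, 1533 and 1431 CPM in stress and to 3119, 3047 and 3731 CPM in control. With the first region component in the model, the log2 fold change was -0.62 for Pcolce, -0.83 for Igfbp2 and -0.74 for Rdh5. The part of the choroid plexus content in these values was not tested.

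Across genes, the difference between groups went with transcript length. Genes with an effective length under 1000 bases had a median log2 fold change of -0.25, with 19 higher and 182 lower under an unadjusted p of 0.05. Genes over 5000 bases had a median of 0.17, with 198 higher and 18 lower. Libraries of the same group differed in this trend. Per doubling of length, the log2 level altered by 0.05, 0.07 and -0.07 in stress replicates 1 to 3 and by -0.22, -0.08 and 0.02 in control replicates 1 to 3. Control replicate 1 had the steepest slope, and stress replicate 3 sloped the same way as control replicate 2. After a smooth trend was taken out in each library, the median was 0.00 for the shortest and 0.01 for the longest genes.

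**Figure D2:**
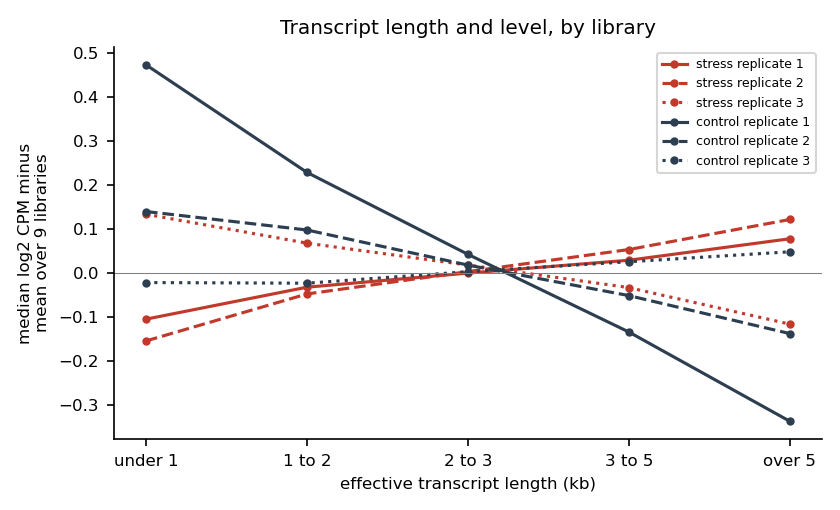
Median log2 CPM relative to the mean over all 9 libraries, by effective transcript length in kilobases, with 1 line for each stress (red) and control (dark blue) library. Genes under 1 kb in control replicate 1 stand at 0.47, and the lines of the other 5 libraries cross between the groups.

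Gene families with short transcripts followed that trend. Among 264 families of symbols with 8 or more tested members, the 8 lowest medians belonged to subunits of respiratory complex I (Ndufb, Ndufa, Ndufs) and its assembly factors (Ndufaf), to cytochrome c oxidase genes (Cox), to proteasome subunits (Psmb) and to ribosomal proteins (Rps, Rpl), at -0.35 to -0.26. With the length trend removed all 8 lay between -0.10 and 0.02. Of 79 nuclear genes of oxidative phosphorylation, 75 lay below 0, against 47.7% of all genes, and 21 were lower under an unadjusted p of 0.05. With the trend removed 2 were higher and 3 lower, against 4.63% and 3.56% of all genes. Cox7c, a small subunit of cytochrome c oxidase, was at 220, 215 and 230 CPM in stress and at 331, 275 and 251 CPM in control, and its log2 fold change of -0.37 was -0.00 with the trend removed. Of 82 cytosolic ribosomal protein genes, 81 lay below 0 and 14 were lower, and with the trend removed 1 was lower and 1 higher. Without control replicate 1, 3 oxidative phosphorylation genes and 1 ribosomal protein gene were lower, in a fit where 1.14% of all genes were. Without control replicate 3 it was 61 and 32, where 10.8% of all genes were lower. Without stress replicates 1, 2 and 3 in turn, 6, 3 and 35 oxidative phosphorylation genes and 1, 1 and 45 ribosomal protein genes were lower, against 1.97%, 1.12% and 10.4% of all genes, and without control replicate 2 it was 11 and 20. Sdhc, a subunit of succinate dehydrogenase with low counts here, kept a gap between groups at 2.67, 2.22 and 2.56 CPM in stress and 5.37, 5.92 and 3.27 CPM in control.

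The highest family medians were those of Ifi (interferon-inducible genes) at 0.63, Pcdh (non-clustered protocadherins) at 0.47, Tlr (toll-like receptors) at 0.44 and Epha (ephrin receptors) at 0.39. After these came Ly (Ly6 and other lymphocyte antigen symbols) at 0.35, Sp (Sp factors and the unrelated Sp100 and Sp110) at 0.34, Clec (C-type lectins) at 0.34 and Pcdhb (clustered beta protocadherins) at 0.31. Symbols group genes by name and not always by function. With the length trend removed, the medians were 0.59 for Ifi, 0.25 for Pcdh, 0.31 for Tlr and 0.22 for Epha. For Ly, Sp, Clec and Pcdhb they were 0.34, 0.26, 0.38 and 0.27. With the first region component in the model, the medians were 0.20 for Ifi, 0.07 for Pcdh, 0.34 for Tlr, 0.14 for Epha, 0.20 for Ly, 0.11 for Sp, 0.07 for Clec and 0.14 for Pcdhb. Leaving out 1 library moved 7 of the 8 medians by over 1.5 times, and Ifi ranged from 0.44 to 0.83. Without stress replicate 1 the median was 0.25 for Pcdh, 0.14 for Sp and 0.09 for Clec, and without stress replicate 2 it was 0.22 for Sp and 0.17 for Clec. Without stress replicate 3 it was 0.20 for Ly and 0.48 for Pcdhb. Without control replicate 1 it was 0.25 for Tlr and 0.18 for Sp, without control replicate 2 it was 0.23 for Epha, 0.13 for Sp and 0.20 for Clec, and without control replicate 3 it was 0.54 for Sp and 0.47 for Pcdhb. Tlr13, an endosomal receptor for bacterial RNA, was at 4.13, 4.62 and 4.46 CPM in stress and at 2.17, 2.29 and 3.27 CPM in control, with a log2 fold change of 0.77 (SE 0.24). Tlr13 did not overlap between groups and was at 0.77 with the region component too. Epha4, a receptor for ephrins on axons and synapses, was at 64.9, 61.4 and 62.4 CPM in stress and at 41.3, 28.9 and 62.2 CPM in control, where control replicate 3 reached the stress values.

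Genes of the vessel wall lay mostly above 0. Of 30 endothelial genes tested, 29 had a log2 fold change above 0, against 52.3% of all genes. Of them 12 were higher under an unadjusted p of 0.05 and 0 lower, against 4.2% and 3.78% of all genes. In 10 every stress value lay above every control value, against 5.19% of all genes. The median log2 fold change was 0.78. Ly6c1, a surface protein of brain endothelium, was at 47.4, 87.9 and 60.8 CPM in stress and at 45.9, 32.9 and 27.4 CPM in control, a log2 fold change of 0.88 (SE 0.25). Abcg2, an efflux pump of the blood-brain barrier, was at 12.6, 15.4 and 11.4 CPM in stress and at 8.26, 6.88 and 10.3 CPM in control, a log2 fold change of 0.62 (SE 0.18). Both genes were highest in stress replicate 2. Vwf, the von Willebrand factor, was at 55.4, 78.5 and 42.9 CPM in stress and at 50.2, 33.5 and 22.99 CPM in control. Slc2a1, the glucose transporter of the barrier, was at 114, 154 and 86.7 CPM in stress and at 101, 103 and 74.2 CPM in control, and its groups overlap. Averaged over the list, the endothelial genes stood at 0.33, 1.35 and 0.29 on the log2 scale in stress and at 0.15, 0.04 and -0.19 in control, so the groups separate but most of the distance comes from stress replicate 2. Without stress replicate 2 the median was 0.31 and 3 members were higher under an unadjusted p of 0.05, against 1.5% of all genes. The number was 7 without control replicate 1, against 2.01%. It was 5 without control replicate 3, in a fit where 13.3% of all genes were higher. In bulk tissue, more cells of a type and more RNA per cell cannot be told apart. Summed over 5 defining markers, the exact two-sided permutation p was 0.1, the smallest that 3 against 3 allows.

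Pericyte and smooth muscle genes, which mark the cells that wrap the vessels, lay above 0 in 18 of 20, with 3 higher under an unadjusted p of 0.05 and a median of 0.32. Atp13a5, a transporter found in brain pericytes, was at 8.38, 11.7 and 7.15 CPM in stress and at 2.96, 4.83 and 5.02 CPM in control, a log2 fold change of 1.09 (SE 0.28). Rgs5, a regulator of G-protein signalling and a pericyte marker, was at 44.8, 107 and 37.5 CPM in stress and at 20.9, 28.0 and 30.1 CPM in control, a log2 fold change of 1.26 (SE 0.44). Rgs5 too was highest in stress replicate 2. The median was 0.19 without stress replicate 2, 0.51 without control replicate 2 and 0.18 without control replicate 3. The number of members higher was 5 without stress replicate 3, where 10.5% of all genes were higher.

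Neutrophil genes lay above 0 in every tested member, 15 of 15. Of these 7 were higher under an unadjusted p of 0.05 and 5 did not overlap, with a median of 0.94. Another 5 listed genes were below the filter on low counts. Csf3r, the receptor for granulocyte colony-stimulating factor, was at 12.7, 8.68 and 11.8 CPM in stress and at 7.72, 5.07 and 5.99 CPM in control, a log2 fold change of 0.82 (SE 0.23). Chil3, a secreted chitinase-like protein of myeloid cells, was at 9.53, 2.22 and 5.13 CPM in stress and at 2.11, 1.33 and 0.91 CPM in control, a log2 fold change of 1.95 (SE 0.59). S100a9, a calcium-binding protein abundant in neutrophils, was at 55.3, 13.9 and 20.6 CPM in stress and at 23.4, 8.39 and 14.9 CPM in control. Stress replicate 1 was the highest library for Csf3r, Chil3 and S100a9, and S100a9 overlaps between groups. The list averaged 1.91, 0.20 and 0.74 on the log2 scale in stress and 0.47, -0.32 and -0.15 in control, and control replicate 1 lay above stress replicate 2. The number of members higher was 2 without stress replicate 1, 3 without control replicate 2, and 4 without control replicate 1 or 3. Of all genes, 2.89%, 2.43%, 2.01% and 13.3% were higher in these fits, in that order. Red cell genes, a sign of blood left after perfusion, averaged 0.52, -1.64 and -0.90 in stress and -0.15, -0.38 and 0.53 in control, and the part of residual blood was not tested.

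**Figure D3:**
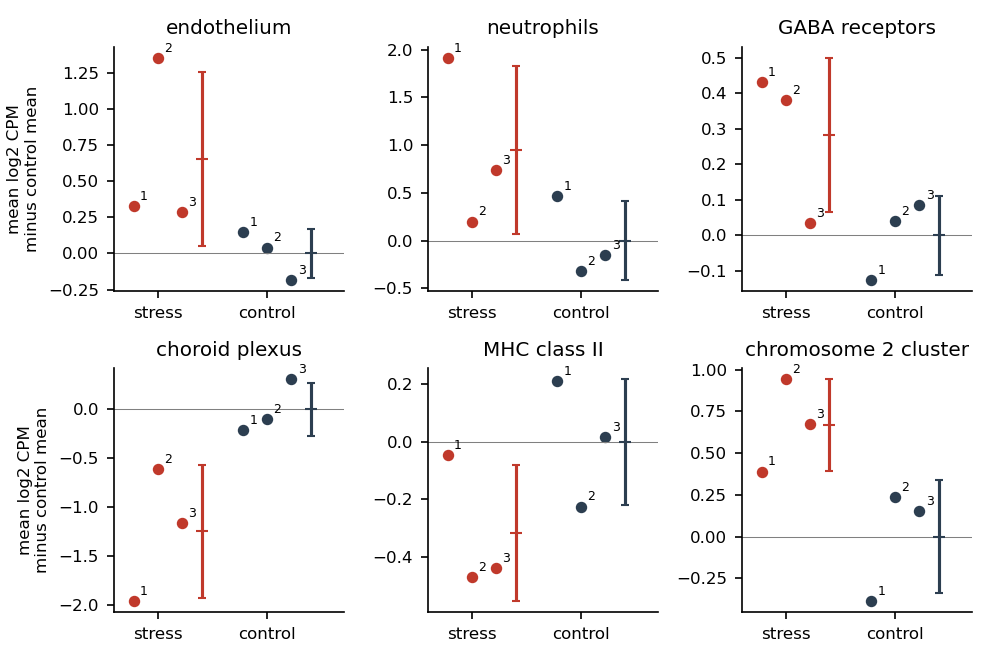
Mean log2 CPM of 6 gene groups in each library relative to the control mean, with replicate numbers beside the points and the group mean with its SD (n = 3 each) to the right of them. Stress replicate 2 is highest for endothelium, stress replicate 1 is highest for neutrophils, and the groups overlap for neutrophils, GABA receptors and MHC class II but not in the other 3 panels.

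T cell transcripts were too rare to compare. Of 30 T cell genes 8 passed the filter, 4 above and 4 below 0, and 0 were under an unadjusted p of 0.05 in edgeR. The 5 defining markers, which encode the CD3 chains and CD8, summed to 13, 14 and 10 reads in stress and to 13, 15 and 13 reads in control. At this depth no difference was detectable (exact two-sided permutation p = 0.7). Of 13 genes that guide T cells into tissue, 10 lay above and 3 below 0, with 1 higher and 1 lower under an unadjusted p of 0.05 and a median of 0.25. That median was 0.16 without stress replicate 1 and 0.52 without control replicate 1. Ccl3, a chemokine of microglia, was at 4.25, 2.22 and 3.18 CPM in stress and at 2.05, 0.97 and 1.997 CPM in control, a log2 fold change of 0.94 (SE 0.36). Ccl19, a chemokine that attracts T cells to lymph nodes, was at 0.61, 0.55 and 0.49 CPM in stress and at 0.84, 1.21 and 0.91 CPM in control, a log2 fold change of -0.83 (SE 0.36).

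Interferon-stimulated genes lay above 0 in 26 of 32, with 5 higher and 1 lower under an unadjusted p of 0.05 and a median of 0.25. Oas2, which senses double-stranded RNA, was at 1.58, 1.42 and 1.16 CPM in stress and at 0.78, 0.42 and 0.60 CPM in control, a log2 fold change of 1.19 (SE 0.35). Stat2, a transcription factor of the interferon response, was at 39.2, 51.1 and 52.7 CPM in stress and at 38.1, 47.9 and 48.2 CPM in control, with overlap. The median of the list was 0.04 without stress replicate 3, 0.15 without control replicate 2 and 0.42 without control replicate 1. With the animal code letter as a covariate the median was -0.06. Control replicate 1 is the only control that shares the letter of the stress animals, so that fit sets stress against this animal alone.

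Genes of MHC class II, which present antigen to CD4 T cells, were lower in 5 of 10 and higher in 1 under an unadjusted p of 0.05. Cd74, the invariant chain, was at 19.2, 13.6 and 14.2 CPM in stress and at 26.1, 19.4 and 25.0 CPM in control, and H2-Aa at 9.29, 5.48 and 4.83 CPM in stress and at 13.4, 8.09 and 12.7 CPM in control. Ctss, the protease that trims the invariant chain, ran the other way, at 118, 103 and 108 CPM in stress and at 95.6, 81.5 and 93.3 CPM in control. Cd74 and Ctss do not overlap between groups, while H2-Aa does. The number lower was 1 without control replicate 1, stress replicate 2 or stress replicate 3, where 1.14%, 1.12% and 10.4% of all genes were lower. In MHC class I, B2m (beta-2-microglobulin, shared by all class I molecules) was at 188, 178 and 183 CPM in stress and at 156, 138 and 154 CPM in control. The class I heavy chain H2-D1 ran against it, at 115, 131 and 142 CPM in stress and at 160, 148 and 147 CPM in control, and H2 genes share reads with near-identical copies.

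Choroid plexus genes lay below 0 in all 17 members tested, and 14 of them did not overlap, against 4.65% of all genes. In the 9-library fit 1 was lower under an unadjusted p of 0.05, and in a fit of the 6 stress and control libraries alone 14 were, against 2.32% of all genes there. Without enriched replicate 2, 14 were lower too, against 2.83% of all genes, and without 1 stress or control library 0 to 2 were. Enpp2, a secreted lysophospholipase D, was at 301, 525 and 439 CPM in stress, at 163, 789 and 166 CPM in the enriched animals and at 688, 751 and 1087 CPM in control. Calml4, a calmodulin-like protein, was at 0.36, 0.92 and 0.24 CPM in stress and at 1.21, 1.09 and 1.15 CPM in control. The median was -1.19. With the first region component in the model the median was -0.33, but that component includes these genes. Ependymal and motile cilia genes lay below 0 in 22 of 26, with 5 lower and 1 higher. Foxj1, the master factor of motile cilia, was at 15.5, 11.4 and 8.37 CPM in stress and at 24.0, 22.04 and 14.8 CPM in control, with a small overlap.

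**Figure D4:**
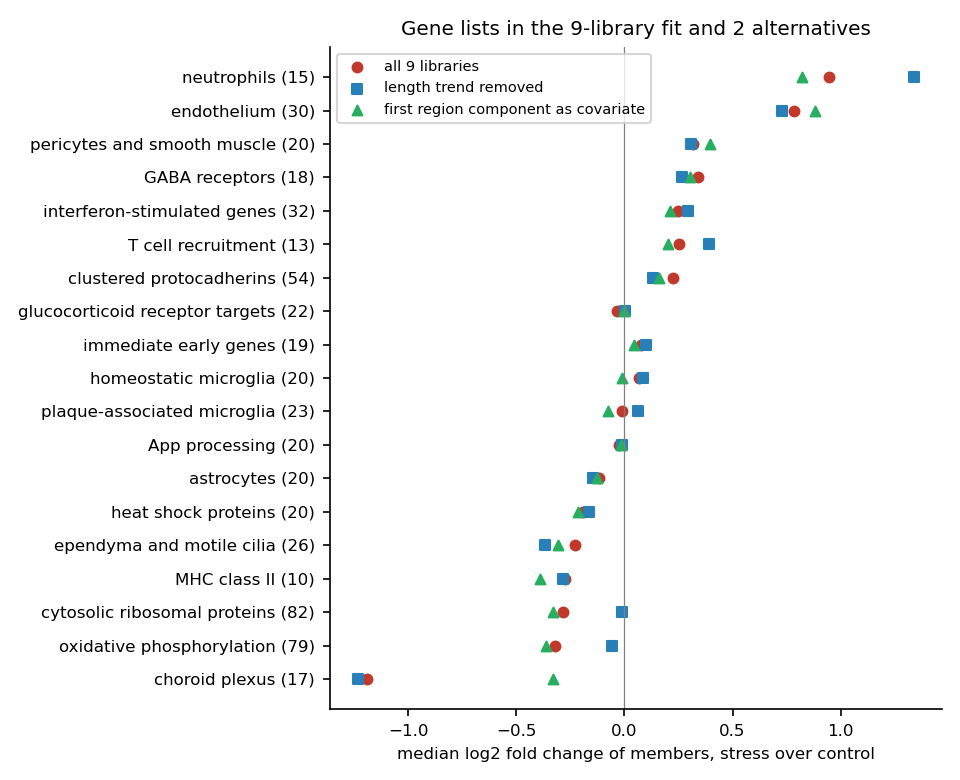
Median log2 fold change of 19 gene lists (stress over control, number of tested genes in brackets) in the 9-library fit, with the length trend removed and with the first region component in the model. Endothelium and neutrophils stay above 0.7 in all 3, and the ribosomal and oxidative phosphorylation medians move close to 0 with the length trend removed.

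Genes that glucocorticoids control lay on both sides of 0. Of 22 glucocorticoid receptor targets, 9 lay above 0 and 13 below, and the median was -0.03. The 1 member under an unadjusted p of 0.05 was Tsc22d3, which encodes the glucocorticoid-induced leucine zipper. It was lower, at 98.2, 94.3 and 92.0 CPM in stress and at 137, 114 and 109 CPM in control, a log2 fold change of -0.34 (SE 0.11). Fkbp5, a co-chaperone that dampens the receptor, was at 23.7, 23.1 and 20.8 CPM in stress and at 29.6, 24.2 and 30.1 CPM in control, and its groups do not overlap either. Nr3c1, the receptor, was at 89.4, 93.7 and 91.2 CPM in stress and at 63.0, 82.5 and 98.6 CPM in control. Hsd11b1, which regenerates active corticosterone within cells, was at 43.5, 50.5 and 46.6 CPM in stress and at 53.9, 64.2 and 63.0 CPM in control, a log2 fold change of -0.36 (SE 0.11). Pomc, the precursor of ACTH, reached 51.3 CPM in stress replicate 3, while the remaining 5 animals had at most 1.57 CPM. Heat shock genes lay below 0 in 17 of 20, with 1 lower under an unadjusted p of 0.05, and Hspa8, the most abundant, was at 2799, 2704 and 3273 CPM in stress and at 4765, 3399 and 3076 CPM in control.

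Of 19 activity-induced genes tested, 13 lay above 0, with 1 higher and 2 lower under an unadjusted p of 0.05. Egr1, a transcription factor induced by neuronal firing, was at 83.0, 174 and 133 CPM in stress and at 108, 67.0 and 109 CPM in control, with overlap. Nr4a2, a nuclear receptor, was at 11.6, 10.6 and 8.43 CPM in stress and at 17.2, 11.1 and 19.5 CPM in control, a log2 fold change of -0.64 (SE 0.22).

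Receptors for the inhibitory transmitter GABA lay above 0 in 17 of 18, with 5 higher under an unadjusted p of 0.05 and a median of 0.34. Gabra3, an alpha subunit, was at 82.1, 82.0 and 80.1 CPM in stress and at 54.1, 48.2 and 73.1 CPM in control, a log2 fold change of 0.48 (SE 0.15). Gabrg3, a gamma subunit, was at 15.1, 12.7 and 10.9 CPM in stress and at 6.51, 8.21 and 11.1 CPM in control. Gabra3 does not overlap, and in both genes control replicate 3 was the highest control. The number higher was 1 without control replicate 1, control replicate 2 or stress replicate 1, 2 without stress replicate 2, where 1.5% of all genes were higher, and 10 without control replicate 3, where 13.3% were. It was 0 with the first region component, where 2.78% of all genes were higher. Among glutamate receptors, Grin2b, an NMDA receptor subunit, was at 130, 138 and 133 CPM in stress and at 72.9, 63.3 and 121 CPM in control, a log2 fold change of 0.64 (SE 0.21). The 27 glutamate receptor genes had 4 higher and a median of 0.09, which was 0.00 with the length trend removed. Clustered protocadherins, which give neurons a surface identity, lay above 0 in 41 of 54, with 6 higher. Without control replicate 1 or stress replicate 2, 1 was higher, against 2.01% and 1.5% of all genes, and without control replicate 3, 13 were, against 13.3%. The median was 0.23, and it was 0.13 with the length trend removed and 0.10 without control replicate 1. Pcdha7 was at 12.4, 10.9 and 9.04 CPM in stress and at 6.996, 6.76 and 7.08 CPM in control, a log2 fold change of 0.63 (SE 0.16).

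App, the amyloid precursor, in whose count reads of the human transgene cannot be told apart, was at 2888, 2753 and 2978 CPM in stress and at 2362, 2807 and 2984 CPM in control. Of 20 genes of App processing 0 were under an unadjusted p of 0.05 in edgeR, in either direction. Among 23 plaque-associated microglia genes 1 was higher and 1 lower. Csf1, a growth factor for microglia, was at 40.6, 33.2 and 32.6 CPM in stress and at 29.4, 28.6 and 29.6 CPM in control, and Cd63, a lysosomal membrane protein, at 86.6, 89.2 and 100 CPM in stress and at 134, 107 and 102 CPM in control. Among 20 homeostatic microglia genes, P2ry13, a nucleotide receptor, was the 1 higher, at 12.6, 12.4 and 11.0 CPM in stress and at 6.09, 8.57 and 9.98 CPM in control. Of 20 astrocyte genes 3 were lower, against 3.78% of all genes, among them Mlc1, a membrane protein of astrocyte endfeet, at 216, 199 and 224 CPM in stress and at 283, 250 and 248 CPM in control. The number lower was 0 without stress replicate 2, 1 without control replicate 1 or 2 and 8 without control replicate 3, where 10.8% of all genes were lower. Of 21 genes of reactive astrocytes 3 were higher, against 4.2% of all genes, 0 were lower and the median was 0.11. The median was -0.05 without stress replicate 1 and 0.25 without control replicate 1. Osmr, the receptor for oncostatin M, was at 4.80, 7.51 and 4.46 CPM in stress and at 3.20, 2.60 and 4.54 CPM in control, with overlap. The median of the 20 astrocyte genes was -0.12, and 0.02 in the fits on deposited TPM, which shift the median of all genes to 0.13 or 0.14.

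A stretch of chromosome 2 held several of the leading genes, and was picked out after the values were seen. Gm14305, Gm14393 and Gm2004 were among the 12 genes highest by p, and all lie in a cluster of predicted genes and Zfp zinc finger genes between 175057954 and 178078425 on chromosome 2 (GRCm38.p6). All 28 tested genes of the cluster lay above 0. Of them 13 (46.4%) were higher under an unadjusted p of 0.05, against 4.2% of all genes, and 0 were lower. In 11 every stress value lay above every control value, against 5.19% of all genes, and the median was 0.58. Summed, they stood at 522, 630 and 672 CPM in stress, at 445, 516 and 427 CPM in the enriched animals and at 306, 495 and 394 CPM in control. The sums do not overlap between stress and control, and control replicate 1 was the lowest library. Gm14305 was at 10.5, 9.17 and 10.1 CPM in stress and at 3.38, 6.22 and 5.08 CPM in control, a log2 fold change of 1.02 (SE 0.22). Gm14325 was at 31.4, 40.3 and 47.8 CPM in stress and at 12.5, 27.7 and 20.1 CPM in control, a log2 fold change of 0.99 (SE 0.28). Gm14326 was at 62.2, 71.8 and 74.1 CPM in stress and at 29.7, 57.1 and 40.2 CPM in control, a log2 fold change of 0.71 (SE 0.21). In all 3 genes control replicate 1 was lowest and the groups do not overlap.

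The cluster's median was 0.57 with the length trend removed, 0.81 with the first region component and between 0.43 and 0.75 in fits that left out 1 stress or control library. Of 14 other tested genes that neighbour the cluster on the chromosome, 5 lay above 0 and 0 were under an unadjusted p of 0.05, with a median of -0.05. Among these neighbours 2 were higher and 0 lower without overlap, against 5.19% and 4.65% of all genes. The 357 Zfp genes outside the cluster had 28 higher (7.84%) and 5 lower (1.40%), against 4.2% and 3.78% of all genes, and a median of 0.16. The members are near-copies of each other, as a median of 92.0% of their 50-base words (range 23.6% to 100%) also occur in transcripts of other genes. Reads of 1 copy can thus be credited to another, the members are not independent, and the values of single genes are uncertain. Zfp965, a member of the cluster, was at 16.8, 24.4 and 25.1 CPM in stress and at 0.72, 11.8 and 12.04 CPM in control, where control replicate 1 stands far below the rest.

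**Figure D5:**
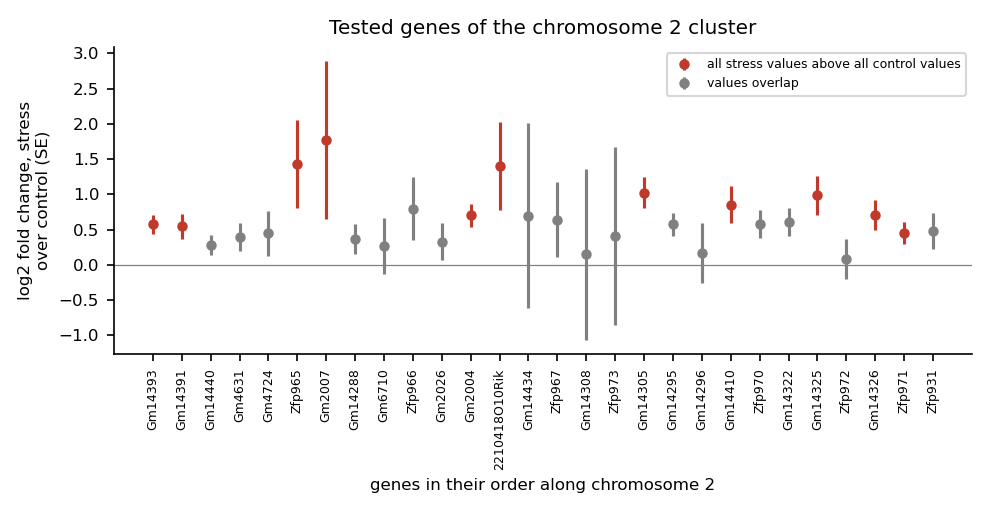
Log2 fold change of stress over control with its SE for the 28 tested genes of the chromosome 2 cluster in their order along the chromosome, in red where all stress values lie above all control values. Every point lies above 0, from 0.09 for Zfp972 to 1.77 for Gm2007.

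Promoters of 3 cluster genes, from RefSeq on GRCm38.p6, are shown because members that move together also share sequence there. They are those of Gm14305 (chr2:176708103-176708402, plus strand), Gm14325 (chr2:177840287-177840586, minus strand) and Gm14326 (chr2:177957239-177957538, minus strand), with the 68-base run that all 3 hold in capitals.
Gm14305: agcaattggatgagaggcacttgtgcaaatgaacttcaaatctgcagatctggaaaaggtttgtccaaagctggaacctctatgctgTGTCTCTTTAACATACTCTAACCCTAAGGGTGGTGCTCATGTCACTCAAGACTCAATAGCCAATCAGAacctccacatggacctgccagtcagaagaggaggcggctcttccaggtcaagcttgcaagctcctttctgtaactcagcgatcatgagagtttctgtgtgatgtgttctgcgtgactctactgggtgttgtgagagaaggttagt
Gm14325: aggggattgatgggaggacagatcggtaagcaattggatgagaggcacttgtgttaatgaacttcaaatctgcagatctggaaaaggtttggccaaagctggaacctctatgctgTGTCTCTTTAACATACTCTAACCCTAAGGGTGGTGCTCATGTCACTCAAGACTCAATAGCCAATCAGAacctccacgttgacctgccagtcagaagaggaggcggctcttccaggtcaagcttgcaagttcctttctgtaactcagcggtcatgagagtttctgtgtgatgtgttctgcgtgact
Gm14326: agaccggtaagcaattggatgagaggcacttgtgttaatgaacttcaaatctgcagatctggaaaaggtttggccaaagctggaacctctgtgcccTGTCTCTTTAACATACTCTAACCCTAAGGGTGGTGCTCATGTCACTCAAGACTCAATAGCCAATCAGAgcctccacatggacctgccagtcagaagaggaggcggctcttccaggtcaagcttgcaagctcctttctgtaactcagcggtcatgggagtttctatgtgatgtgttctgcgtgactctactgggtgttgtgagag
Aligned in pairs, they were 96.4% to 97.4% identical. The 68-base run occurs in 13 of 27 cluster promoters and in 15 genes among all 32851 promoter windows. A 20-base word within it, AACCCTAAGGGTGGTGCTCA, occurs in 25 of the 27 cluster promoters and in 29 genes in all. The match is a description of near-copies and names no factor.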

How the data were processed

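Brain RNA of 9 APP/PS1 mice had been sequenced, 3 each under stress, a standard environment and an enriched environment. Per the labels' protocols, oligo(dT)-bound messenger RNA was fragmented and copied with random hexamers, and no molecular identifiers or strand marking are described. Tools named in the submitters' processing notes are RSEM 1.2.12, HISAT2 2.0.4 and Bowtie2 2.2.5, with the build GRCm38.p6. The deposited table gives, per RefSeq transcript, an estimated count (56.5% of values not whole), a TPM and an FPKM computed by the authors. It has 65535 rows (65536 lines with its header) and may be cut off, as transcripts with 3.93% to 4.33% of a library's TPM are absent. All annotated transcripts were present for 67.3% of genes and for 68.8% of tested genes. Values of the remaining genes may lack part of their reads. Among these are Samd9l and Pcolce (1 of 2 annotated transcripts each), Dyrk1b (4 of 6) and Fyb (5 of 9). Counts were summed to 18450 genes, of which 18398 matched a RefSeq symbol, and rounded. The deposited FPKM served only to derive effective lengths and the deposited TPM only an alternative.

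Genes were filtered with filterByExpr (minimum count 10, total 15), scaled by TMM (0.964 to 1.025) and fitted over all 9 libraries with edgeR 4.0.16 (quasi-likelihood, robust, 6 residual degrees of freedom) in R 4.3.3, checked on simulated data. CPM uses the TMM-scaled library sizes. DESeq2 1.42.0 and limma 3.58.1 were alternatives, as were other scalings and filters, removal of a length trend, region components, the animal code letter and leaving out each library. Single values were compared by exact permutation tests. P-values measure the spread between animals, and the group labels, not replicate numbers, define the samples. Precision is set by 3 animals a group at 15851833 to 17213008 counts per library.

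Genes named are the 12 with the smallest p in each direction, up to 4 members of each described list (highest mean CPM and smallest p), and members of the 8 highest and 8 lowest families by symbol stem. Of the genes this rule selects, 1 is not reported here. The following were named outside this rule, after their values were seen: the chromosome 2 cluster, its member Zfp965 and the motif GAAANNGAA. The comparison, the 49 gene lists and the tests were chosen with earlier results of these data known. No library pair within or between the groups was alike enough to be 1 library deposited again, with a chi-square per gene of 12.8 or more.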

Additional observations from a re-analysis of the deposited data

How the results depend on the processing

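No gene was called in the fits with the length trend removed, with 1 or both region components, with RLE or upper quartile factors, with no filter or a minimum count of 50, with the 6 libraries alone, by limma-voom or by limma on TPM, nor in any fit without 1 of the 9 libraries (0 to 0). DESeq2 called 7 (Samd9l, Slc10a7, Dyrk1b, Col24a1, Pcolce, Igfbp2 and LOC115489330). With the animal code letter as a covariate, stress is set against control replicate 1 alone, so gene counts from that fit are not given. The 1172 genes under an unadjusted p of 0.05 became 768 with the first region component, 532 with both components, 3593 with the letter and 714 with the 6 libraries alone. Leaving out 1 library gave 384 to 3540. Omitting stress replicates 1, 2 or 3 gave 713, 384 or 3073, and omitting control replicates 1, 2 or 3 gave 462, 694 or 3540 (the cause was not tested). On TPM 79.8% or 80.2% of such genes were higher in stress, against 52.6% on counts, and the median of all genes was 0.13 or 0.14 in place of 0.02. Of 524 values of the 24 genes with the smallest p (12 in each direction) under the alternatives, 517 kept direction and side of the threshold, 7 passed it (all in DESeq2) and 0 reversed. Of 1099 medians of lists and the chromosome 2 cluster (added after seeing the data), 1009 moved by less than the spread of list means within groups and 90 by more. No paired analysis was possible because replicates were numbered in accession order and pair no animals. At this depth T cell markers, with 10 to 15 reads a library, allowed no comparison.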
